A study of Mus musculus with 6 samples.

Results

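Synaptic vesicle and presynaptic genes encode the proteins with which an axon terminal fills, docks, fuses and recovers its transmitter vesicles. A named list of 36 such genes was examined in RNA-Seq data from mouse olfactory mucosa, and all 36 were found by symbol among the 24661 genes of the deposited tables. In mice lacking the receptor-transporting proteins RTP1 and RTP2, 10 of the 36 were lower than in wild-type mice, at 30.5% to 70.6% of the wild-type mean, and 0 were higher, where 3.15% of all genes tested were lower and 0.46% higher. The lower genes were the glutamate transporter Slc17a6, the synaptotagmins Syt1 and Syt4, the synapsin Syn2, the vesicle membrane proteins Syp and Sv2a, the SNARE protein Snap25, the complexin Cplx1, and the endocytic genes Dnm1 and Snap91. Of the 8 active zone genes and the 3 Rab3 genes 0 passed edgeR's test with an adjusted p. At an unadjusted p under 0.05, 2 and 1 of them were lower, where 7.17% of all genes were. With so few genes, 0 called does not show that these roles were spared. The active zone gene Bsn passed when the replicate number was a block in the fit.

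Olfactory sensory neurons (OSNs) lie in the olfactory epithelium, and each sends an axon to the olfactory bulb, where its terminals release glutamate onto bulb neurons. Vesicles are loaded by a glutamate transporter, tethered by synapsins, docked and primed at the active zone, and fused by SNARE proteins when a synaptotagmin binds calcium. The mRNAs of these proteins are made largely in the cell body, so they can be measured in the epithelium although the synapses lie elsewhere. RTP1 and RTP2 help odorant receptors reach the cell surface.

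The mucosa came from 3 wild-type and 3 RTP1,2DKO mice at postnatal day 21. RTP1,2DKO mice carried deletions of the coding regions of Rtp1 and Rtp2 on both chromosomes in every tissue, with the stretch between these genes left in place. Per the methods the targeted stem cells were of hybrid 129/B6 origin and the line was backcrossed to C57BL/6, the strain given for all 6 mice, and the mice were sex-matched littermates. The tissue was the whole mucosa with its surroundings, a mixture of mature and immature OSNs, supporting and basal cells, glands, glia, blood and nerve, so a lower level can come from fewer cells of a type or from less RNA per cell, and bulk samples cannot tell these apart.

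Estimated counts per mouse totalled 31125410 to 41636996, and the 36 genes took 0.179% to 0.272% of them. Bpifb9b was the most abundant gene in every mouse, at 4.81% to 13.7% of its counts. Rtp1 had 20592, 25387 and 13589 normalized counts in the wild-type mice and 90.9, 85.8 and 109 in the RTP1,2DKO mice, a log2 fold change of -7.70, and Rtp2 changed by -7.55, as the genotype labels give. A normalized count is an estimated count divided by the size factor of its mouse, and every log2 fold change below is RTP1,2DKO over wild-type. The 12 markers of mature OSNs, among them the olfactory marker protein Omp, the adenylyl cyclase Adcy3 and the channel subunit Cnga2, summed to 175149 to 204138 normalized counts in wild-type mice and to 89231 to 96411 in RTP1,2DKO mice. Their sum in RTP1,2DKO was 48.2% of the wild-type sum (exact permutation test, two-sided p = 0.1, the smallest that 3 against 3 mice allow).

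Within the wild-type mucosa the presynaptic genes spanned a wide range of transcript levels, measured as TPM, an abundance corrected for transcript length and scaled to the same total in each mouse. The highest was Syt11, a synaptotagmin that lacks calcium binding, at 97.4 ± 25.98 TPM (SD, n = 3), followed by the vesicle SNARE Vamp2 at 72.3 ± 17.0 TPM, Syp at 66.7 ± 22.8 TPM and Syt1 at 63.3 ± 14.1 TPM. Syt11 was above the other 3 in each wild-type mouse, whereas the order of Vamp2 and Syp, and of Syp and Syt1, changed between mice. Mean levels were at least 30 TPM for 11 of the 36 genes and under 3 TPM for 10 genes. The least abundant were Syt2 at 0.194 ± 0.113 TPM, Sncb at 0.458 ± 0.212 TPM, Ppfia3 at 0.511 ± 0.115 TPM and the cortical glutamate transporter Slc17a7 at 0.546 ± 0.135 TPM. Wild-type mouse 3 had the lowest TPM of its group for 30 of the 36 genes but the lowest normalized count for 14, so the groups were compared on normalized counts only.

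**Figure D1:**
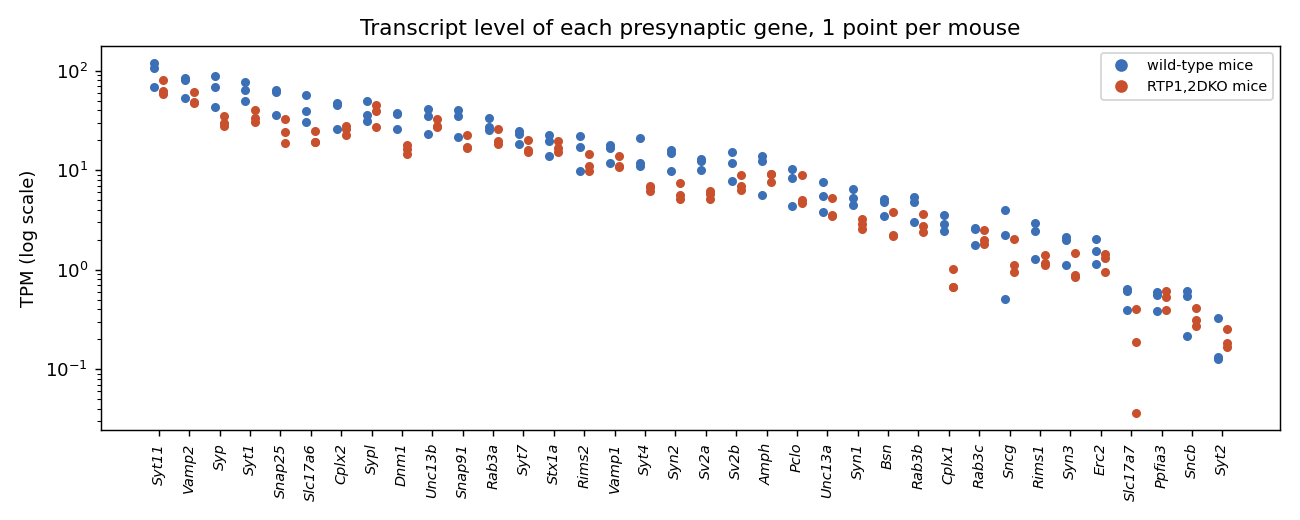
TPM of each of the 36 presynaptic genes on a log axis, ordered by the wild-type mean, with 1 point per mouse (blue, 3 wild-type; orange, 3 RTP1,2DKO). Levels run from 97.4 TPM for Syt11 down to 0.194 TPM for Syt2 in the wild-type means. The genotypes were compared on normalized counts and not on TPM, so offsets between blue and orange points are not the fold changes given in the text.

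The genotype comparison was one edgeR quasi-likelihood fit over 22152 genes with Benjamini-Hochberg adjustment over all of them, and a gene was called at an adjusted p under 0.05. Of the 36 presynaptic genes, 27.8% were called lower, against 3.15% of all genes tested. Their median log2 fold change was -0.36, or 77.9% of wild-type, against 0.02 for all genes, and 30 of the 36 values were negative. At an unadjusted p under 0.05, 18 were lower and 0 higher, where 7.17% and 4.58% of all genes were. A fit limited to genes averaging 10 or more counts, which kept 35 of the 36, called the same 10 lower, against 3.58% of the genes in it. With the replicate number as a block, 12 of the 36 were lower, against 3.68% of all genes, and 0 higher, against 0.885%. In 21 of the 36 genes every RTP1,2DKO mouse was below every wild-type mouse, and in 0 the reverse held, where 9.24% and 7.17% of all genes did so. The 10 called genes were all among these 21. Summed over the 36 genes, the wild-type mice had 86649, 86656 and 81111 normalized counts and the RTP1,2DKO mice 66900.5, 65262 and 68510, or 78.9% of wild-type (exact permutation test, p = 0.1). The sums of the groups did not overlap.

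**Figure D2:**
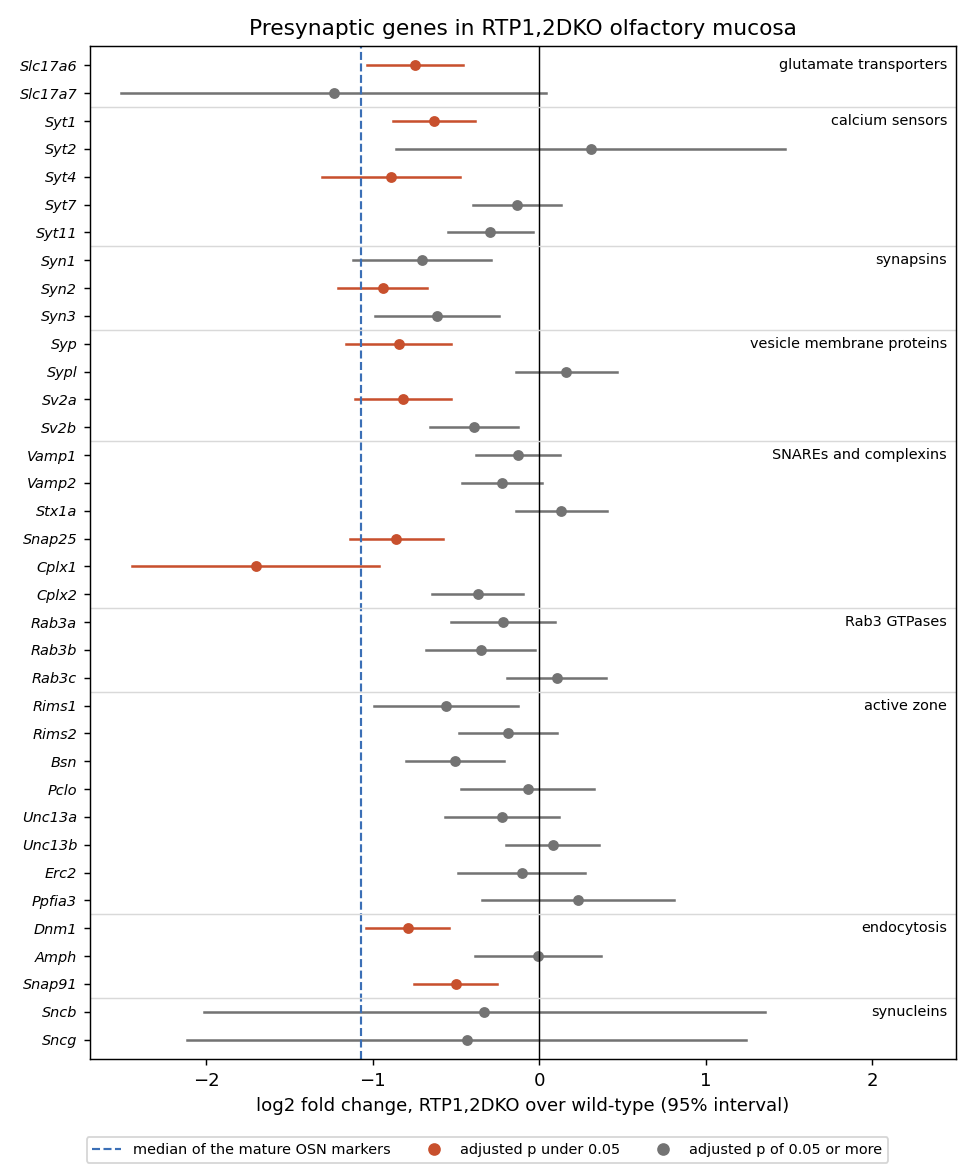
Log2 fold change of each presynaptic gene (RTP1,2DKO over wild-type) with its 95% interval, grouped by role. Orange marks the 10 genes with an adjusted p under 0.05, all to the left of 0, and the dashed line is the median of the 12 mature OSN markers at -1.07.

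Among the glutamate transporters, Slc17a6 carries glutamate into the vesicles of OSNs (chr7:51622006-51671119, mm10, plus strand). It had 4318, 5873 and 4777 normalized counts in wild-type mice 1, 2 and 3 and 2929.8, 2855 and 3145 in RTP1,2DKO mice 1, 2 and 3. The groups did not overlap, and the RTP1,2DKO mean was 59.7% of wild-type (log2 fold change -0.75 ± 0.13 (SE), adjusted p = 0.0056). Slc17a6 made up nearly the whole of the vesicular glutamate transporter counts, with 98.0% ± 0.6 in wild-type and 97.2% ± 0.6 in RTP1,2DKO mice of the summed counts of Slc17a6, Slc17a7 and Slc17a8 (SD, n = 3 each; exact permutation test, p = 0.2). Slc17a7 itself lay between 39.8 and 43.6 normalized counts in wild-type mice and between 3.5 and 30.7 in RTP1,2DKO mice, where the spread between mice was wide and the adjusted p was 0.453.

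Slc17a6 was the only gene of the set whose promoter window held the letters TAATTA, the core bound by homeodomain proteins such as LHX2, on either strand. Windows were the 250 bases before each RefSeq transcript start (GRCm38.p6), and 39 windows covered 30 of the 36 genes. Of 32851 such windows over all genes, 4.84% held TAATTA. The window of Slc17a6 is shown because it belongs to the transporter that defines the transmitter of these neurons (chr7:51624387-51624636, plus strand). Those letters are in capitals, 81 bases before the RefSeq transcript start. The window lies inside the gene interval given above, so it precedes a transcript that starts within the gene and not the gene start of that interval.
Slc17a6: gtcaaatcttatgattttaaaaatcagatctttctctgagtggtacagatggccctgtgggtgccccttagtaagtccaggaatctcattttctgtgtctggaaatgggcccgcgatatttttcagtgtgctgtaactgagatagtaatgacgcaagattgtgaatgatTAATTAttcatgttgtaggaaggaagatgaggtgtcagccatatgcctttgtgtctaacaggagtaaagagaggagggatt
The letters CCCNNGGG, which EBF factors of the OSN lineage bind, stood in 7 of the 39 windows of the set and in 11.8% of all windows. Those 7 belonged to Cplx2, Rab3b, Rab3c, Rims1, Sncg, Stx1a and Unc13b. A match is a run of letters and was not tested for binding.

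Of the 5 synaptotagmins, 2 were lower. Syt1, the calcium sensor of fast release (chr10:108497650-109010982, minus strand), had 7690.01, 8817 and 8598 normalized counts in wild-type and 5250, 5458 and 5513 in RTP1,2DKO mice. The RTP1,2DKO values lay close together and below all wild-type values, at 64.6% of the wild-type mean (log2 fold change -0.63 ± 0.11, adjusted p = 0.0059). Syt4, which is found on dense-core vesicles, was at 1054, 1927 and 1649 against 721, 881 and 895. Its lowest wild-type mouse was just above the highest RTP1,2DKO mouse, and the difference of -0.89 ± 0.19 (adjusted p = 0.0186) was past the threshold in 4 of 6 fits that left out a mouse. Without wild-type mouse 2 its adjusted p was 0.0726 and without RTP1,2DKO mouse 1 it was 0.0851.

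Syt11 had 12343, 12898 and 11445 normalized counts in wild-type and 9954, 9206 and 10737 in RTP1,2DKO mice, so the groups did not overlap, but at 81.5% of wild-type it was not called (log2 fold change -0.30, 95% interval -0.55 to -0.04, adjusted p = 0.308). Syt7, a slower calcium sensor, was at 91.0% of wild-type with overlapping groups (adjusted p = 0.771). Syt2, which serves fast synapses of the hindbrain and spinal cord, had only 10.4, 24.9 and 15.5 normalized counts in wild-type and 22.2, 18.4 and 22.6 in RTP1,2DKO mice. Its log2 fold change of 0.31 was the highest of the set and had a 95% interval of -0.86 to 1.48.

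The synapsins bind vesicles to actin and to each other in the reserve pool. Syn2 (chr6:115134902-115282006, plus strand) had 1275, 1119 and 1132 normalized counts in wild-type and 635, 599 and 603 in RTP1,2DKO mice. Its groups were far apart for their spread, and its adjusted p of 0.0007 was the lowest of the set (52.1% of wild-type, log2 fold change -0.94 ± 0.12). Syn1 stood at 343, 470.1 and 585 against 269, 296 and 293, and Syn3 at 488, 409.7 and 343 against 294, 250.3 and 266. Neither overlapped between the groups, yet neither passed the test, with log2 fold changes of -0.70 (adjusted p = 0.072) and -0.61 (adjusted p = 0.0831). With the replicate number as a block, Syn1 passed (adjusted p = 0.036) and Syn3 did not (adjusted p = 0.0505). The 3 synapsin genes overlap exons of Araf, Timp4 and Timp3 on the opposite strand, and Rab3a, Rab3b, Sv2b, Unc13a and Ppfia3 also have an exon neighbour of that kind. Those neighbours are among the counted genes. Syp, Syt4, Syt7, Erc2 and Pclo overlap opposite-strand exons, and Bsn same-strand exons, of genes that were not counted. Whether the counting used strand is not stated.

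The promoter window of Syn1 (chrX:20920919-20921168, minus strand) held both TTCAGCACC, the first part of the RE1 element bound by the neuronal gene repressor REST, 232 bases before the start, and TGACGTCA, the cAMP response element, 159 bases before it. It is shown because it was the only window of the set with both, each in capitals. These letters stood in 0.301% and 1.55% of all windows, and in the set TTCAGCACC was also found for Ppfia3.
Syn1: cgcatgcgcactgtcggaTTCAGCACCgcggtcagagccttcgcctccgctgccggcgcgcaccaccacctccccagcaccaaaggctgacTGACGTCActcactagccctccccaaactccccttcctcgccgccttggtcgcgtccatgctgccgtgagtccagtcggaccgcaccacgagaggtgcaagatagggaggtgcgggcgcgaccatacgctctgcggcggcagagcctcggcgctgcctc

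Of the 4 vesicle membrane genes, 2 were lower. Syp, or synaptophysin, an abundant protein of the vesicle membrane (chrX:7638471-7653256, plus strand), had 4927, 3578 and 3456 normalized counts in wild-type and 2097, 2231 and 2332 in RTP1,2DKO mice. Wild-type mouse 1 was the highest, and the groups were apart without it as well (55.7% of wild-type, log2 fold change -0.84 ± 0.15, adjusted p = 0.0044). Sv2a, a transporter-like glycoprotein of the vesicle (chr3:96181151-96195521, plus strand), was at 1188, 1175 and 1414 against 639, 760.4 and 743, or 56.7% of wild-type (log2 fold change -0.82 ± 0.13, adjusted p = 0.0029). Its paralog Sv2b was at 76.1% of wild-type with no overlap between the groups (adjusted p = 0.133). Sypl, a relative of synaptophysin that many non-neuronal cells express, had overlapping groups at 112% of wild-type (log2 fold change 0.16, adjusted p = 0.769).

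SNARE proteins fuse the vesicle with the plasma membrane and complexins clamp them until calcium arrives, and 2 of these 6 genes were lower. Snap25 (chr2:136713453-136782428, plus strand), the plasma membrane SNARE with a pair of helices, had 2783, 2751 and 2361 normalized counts in wild-type and 1610.3, 1474 and 1267 in RTP1,2DKO mice. The groups were apart by more than their spread, at 55.1% of wild-type (log2 fold change -0.86 ± 0.13, adjusted p = 0.0017). Its partner on the plasma membrane, syntaxin Stx1a, stood at 956, 1031 and 980.2 against 1026, 1003 and 1222, with overlapping groups and a log2 fold change of 0.13 (95% interval -0.14 to 0.40, adjusted p = 0.787). Chosen after the values were seen, the share of Snap25 in the summed counts of Snap25 and Stx1a was 72.6% ± 1.9 in wild-type and 57.2% ± 5.5 in RTP1,2DKO mice (SD, n = 3; exact permutation test, p = 0.1).

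Vamp2, the main vesicle SNARE of neurons, had 3762, 3634 and 3532 normalized counts in wild-type and 3058, 3033 and 3268 in RTP1,2DKO mice. The groups did not overlap, but the level was 85.6% of wild-type and not called (log2 fold change -0.22, adjusted p = 0.479), and Vamp1 was at 91.5% (adjusted p = 0.772). Cplx1 (chr5:108518554-108550024, minus strand) had the lowest log2 fold change of the set, at 116, 130.2 and 244 normalized counts in wild-type and 34.9, 66.5 and 48.2 in RTP1,2DKO mice, or 30.5% of wild-type (log2 fold change -1.70 ± 0.34, adjusted p = 0.0122). Wild-type mouse 3 was well above the other wild-type mice, and Cplx1 missed the threshold without it (log2 fold change -1.30, adjusted p = 0.0517) and without RTP1,2DKO mouse 1 (adjusted p = 0.052). Cplx2, the far more abundant complexin here at 39.6 ± 11.8 TPM against 2.95 ± 0.56 TPM for Cplx1, was at 77.4% of wild-type with no overlap and no call (log2 fold change -0.37, adjusted p = 0.19).

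**Figure D3:**
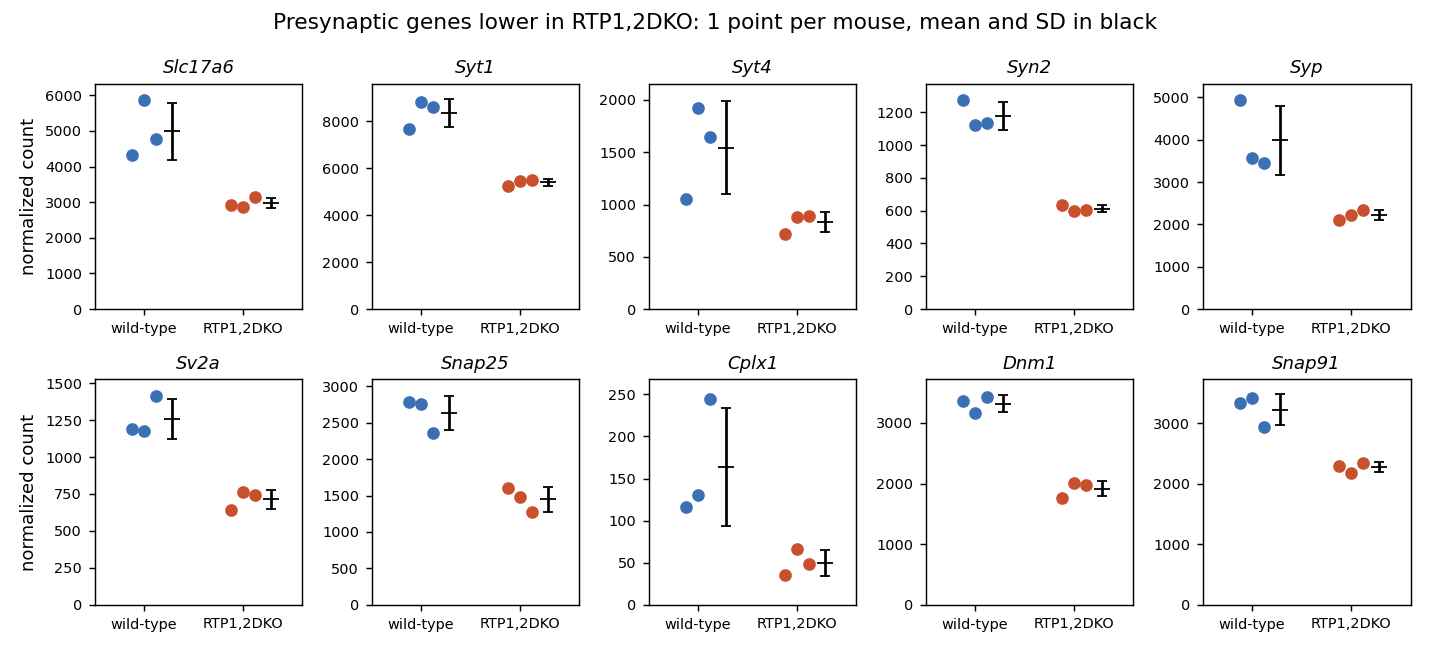
Normalized counts of the 10 presynaptic genes with an adjusted p under 0.05, with 1 point per mouse and the mean ± SD of each group in black; the axes start at 0. In every panel the 3 RTP1,2DKO mice lie below the 3 wild-type mice, and the wild-type spread relative to the mean is widest for Cplx1 and Syt4.

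The Rab3 GTPases mark vesicles for docking, and the active zone proteins form the scaffold at which they dock and are primed. Rab3a, the most abundant Rab3 gene at 28.8 ± 4.3 TPM, stood at 733, 847 and 987 normalized counts in wild-type and 746, 668 and 790 in RTP1,2DKO mice, with overlapping groups (log2 fold change -0.22, adjusted p = 0.661). Rab3b was at 78.4% (no overlap, adjusted p = 0.372) and Rab3c at 108% of wild-type (adjusted p = 0.85). The priming factor Unc13b, the highest active zone gene at 33.0 ± 9.1 TPM, had 6929, 5529 and 5609 normalized counts in wild-type and 5957, 6186 and 6966 in RTP1,2DKO mice. Its groups overlapped, with a log2 fold change of 0.08 (95% interval -0.20 to 0.36, adjusted p = 0.888).

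Log2 fold changes of the 8 active zone genes ran from -0.56 for the Rab3 effector Rims1 to 0.23 for the liprin Ppfia3, with a median of -0.15. Bassoon, Bsn, a scaffold that organizes the active zone, had 2277, 2018 and 2238 normalized counts in wild-type and 1823, 1311 and 1469 in RTP1,2DKO mice. It did not overlap between the groups and lay just outside the threshold (log2 fold change -0.51, adjusted p = 0.0687), and it passed with the replicate block (adjusted p = 0.0213). Its large relative piccolo, Pclo, was at 95.3% of wild-type with overlapping groups (95% interval -0.47 to 0.33, adjusted p = 0.946). Rims1 did not overlap either, at 67.8% of wild-type (adjusted p = 0.216), while Rims2, Unc13a, Erc2 and Ppfia3 overlapped.

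Endocytosis returns vesicle membrane after fusion, and 2 of its 3 genes were lower. The neuronal dynamin Dnm1, which pinches off vesicles (chr2:32308471-32353338, minus strand), had 3368, 3163 and 3425 normalized counts in wild-type and 1769.9, 2007 and 1973 in RTP1,2DKO mice, with tight groups (57.8% of wild-type, log2 fold change -0.79 ± 0.11, adjusted p = 0.0013). Snap91, the clathrin adaptor AP180 (chr9:86765923-86880654, minus strand), was at 3327, 3410.05 and 2928 against 2294, 2177 and 2348, or 70.6% of wild-type. Its log2 fold change of -0.50 ± 0.12 (adjusted p = 0.0281) was the smallest of the called genes, and it was past the threshold in 1 of the 6 fits that left out a mouse, the fit without wild-type mouse 3; in the others its adjusted p was 0.058 to 0.154. Amphiphysin, Amph, was at 99.5% of wild-type with a 95% interval of -0.38 to 0.37 (adjusted p = 0.996). The synucleins Sncb and Sncg had at most 23.0 normalized counts in any mouse, and differences in them were not detectable at this depth. Sncg, the higher in TPM, had 3.11, 23.0 and 19.9 normalized counts in wild-type and 7.40, 7.88 and 18.7 in RTP1,2DKO mice. Its log2 fold change was -0.44 (edgeR adjusted p = 0.909).

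The decline of the called genes was then set against that of the mature OSN markers, of which 10 of 12 were called lower (12 with the replicate block), with a median log2 fold change of -1.07. Omp changed by -0.90, Adcy3 by -1.41 and Cnga2 by -1.05. The log2 fold changes of the 12 markers ran from -2.00 to -0.69. The called presynaptic genes lay within that range except Syt1 and Snap91, which lay above it. In a further fit the size factors were taken from the 12 markers alone, so that a gene at 0 changed as the typical marker did. Intervals and p-values on that scale take these size factors as fixed and leave out the spread between markers. On that scale 71.6% of all genes were higher in RTP1,2DKO and 1.1% lower, and of the 36 presynaptic genes 24, or 66.7%, were higher and 0 lower, a share near that of all genes. The median was 0.74 for the 36 genes and 1.12 for all genes.

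Of the 10 called genes, 9 had a positive value on the marker scale and 2 were called higher, meaning that they fell by less than the typical marker. These were Syt1 (log2 fold change 0.47, 95% interval 0.15 to 0.80, adjusted p = 0.0097) and Snap91 (0.61, 0.29 to 0.94, adjusted p = 0.0012), each past the threshold in 6 of 6 fits that left out a mouse. Slc17a6 was just outside (0.37, 0.02 to 0.71, adjusted p = 0.0512), as was Dnm1 (0.31, -0.02 to 0.65, adjusted p = 0.0858). Both passed with the replicate block (adjusted p = 0.0173 and 0.023) and with a shorter list of markers, Omp, Adcy3, Cnga2 and Cnga4 (adjusted p = 0.0102 and 0.0224). For Syn2 the interval was -0.19 to 0.53, for Snap25 -0.07 to 0.57, for Syp -0.06 to 0.61, for Sv2a -0.10 to 0.66 and for Syt4 -0.22 to 0.64. Those intervals include both no difference from the markers and a smaller fall. Cplx1 alone had a negative value (-0.65, -1.40 to 0.10, adjusted p = 0.111), and it was called lower in 2 of the 6 fits that left out a mouse. Of the 26 genes not called in the first fit, 22 were called higher on the marker scale, where 71.6% of all genes were. Among them were Stx1a (1.25), Rab3c (1.22) and Vamp2 (0.89). These 26 were set apart by the first fit of the same counts, so this count is not separate evidence. Of the 26, 6 lay above the median of all genes on this scale, 1.12.

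**Figure D4:**
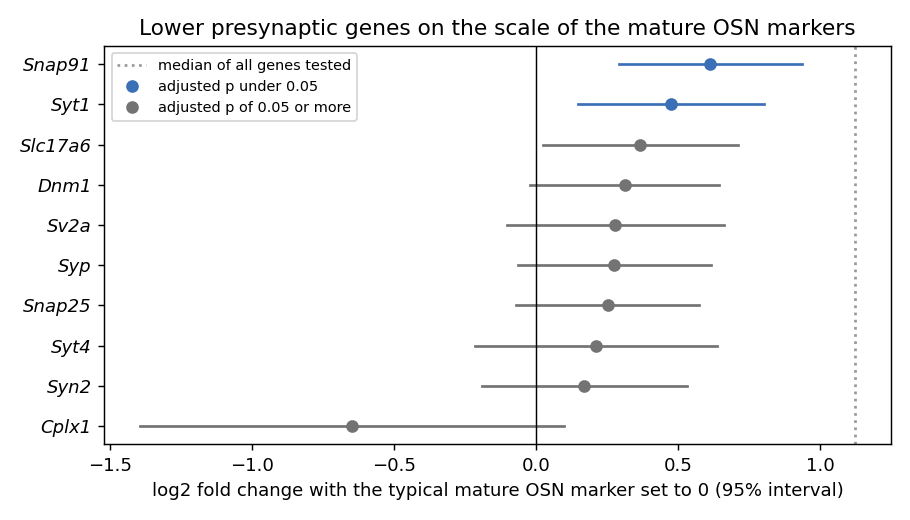
Log2 fold change and 95% interval of the 10 lower presynaptic genes when the typical mature OSN marker is set to 0; blue marks the genes with an adjusted p under 0.05 and the dotted line the median of all genes at 1.12. Syt1 and Snap91 lie above 0 and Cplx1 is the only gene below 0.

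A list of 79 other genes of the release pathway, none of them in the set, was read from the same fit. Of the 78 with any count, 4 were lower (5.13%, against 3.15% of all genes) and 0 higher, with a median log2 fold change of -0.13, and 6 were lower with the replicate block, which added Sv2c and Cacna1a. The lower genes were the vesicle membrane proteins Syngr1 (log2 fold change -0.64, adjusted p = 0.0052) and Synpr (-1.07, adjusted p = 0.0074), the inositol phosphatase Synj2 (-0.85, adjusted p = 0.0025) and the dense-core vesicle priming factor Cadps2 (-0.67, adjusted p = 0.0051). Syngr1, a relative of synaptophysin, stood at 102 ± 35.9 TPM (SD, n = 3) in wild-type mice, near Syt11, and fell from 5606, 5770 and 6129.9 normalized counts to 3479, 3921 and 3810. At an unadjusted p under 0.05 in the edgeR fit, 20 of the 78 were lower and 4 higher, where 7.17% and 4.58% of all genes were. In 23 every RTP1,2DKO mouse was below every wild-type mouse, and in 2 the reverse held, where 9.24% and 7.17% of all genes did so. The vesicle SNARE Vamp8, known from secretory cells, did not overlap in the opposite direction, at 324, 342 and 413 against 451, 508 and 601, and was not called (adjusted p = 0.127).

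**Figure D5:**
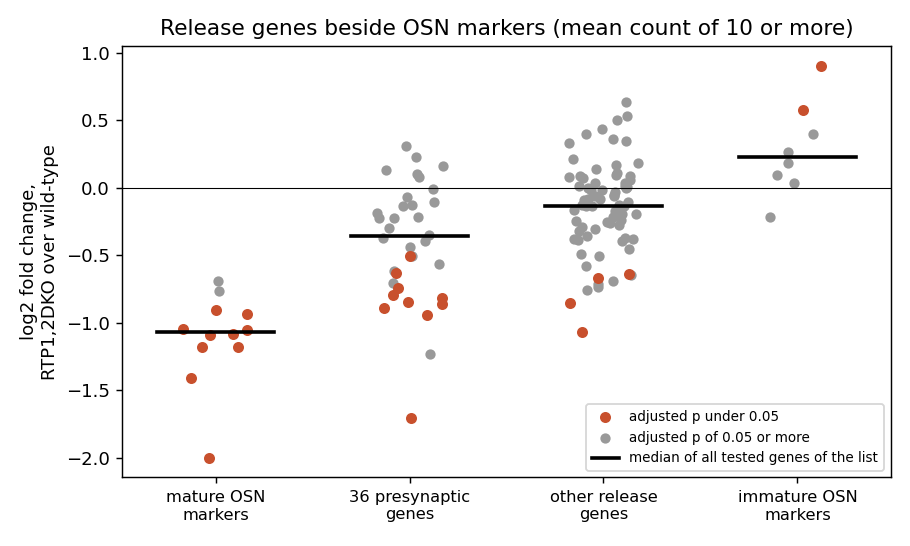
Log2 fold change (RTP1,2DKO over wild-type) of genes with a mean of at least 10 counts in 4 lists. The black bar is the median over all tested genes of the list, including those under that mean, which are not drawn. The medians are -1.07 for mature OSN markers, -0.36 for the 36 presynaptic genes, -0.13 for the other release genes and 0.23 for immature OSN markers; orange marks an adjusted p under 0.05.

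Other cells of the mucosa also carry release genes, and their markers were read beside these results. Of all genes tested, 3.15% were called lower and 0.46% higher, and 0.885% higher with the replicate block. Of 8 markers of immature OSNs, 2 were higher, the growth cone protein Gap43 (log2 fold change 0.58, adjusted p = 0.0418) and the G protein subunit Gng8 (0.91, adjusted p = 0.0104), and Dpysl3 joined them with the replicate block (adjusted p = 0.0497). In 4 of the 8 every RTP1,2DKO mouse was above every wild-type mouse. Gap43 was past the threshold in 1 of the 6 fits that left out a mouse, the fit without wild-type mouse 1. The 8 markers summed to 34667 to 47523 normalized counts in wild-type and to 44501 to 50757 in RTP1,2DKO mice (exact permutation test, p = 0.3). Of 10 markers of brain tissue, which could enter with pieces of olfactory bulb, 1 was lower, Gad1, the enzyme of GABA synthesis, at 186, 298 and 381 against 123, 119 and 141 normalized counts (log2 fold change -1.18, adjusted p = 0.0167). Gad1, like Cplx1, was highest in wild-type mouse 3, and it missed the threshold without that mouse (adjusted p = 0.0699), without RTP1,2DKO mouse 1 (0.0611) and without RTP1,2DKO mouse 2 (0.0539). The 10 brain markers summed to 1758 to 2669 in wild-type and 1675 to 1844 in RTP1,2DKO mice (exact permutation test, p = 0.2). Of the 10, 8 had negative values, with a median log2 fold change of -0.62 against -0.36 for the 36 presynaptic genes, and Slc32a1, Neurod6 and Mog were at most 33.5 in any mouse. Among markers of ganglion neurons, the intermediate filament gene Prph had 251, 235 and 241 normalized counts in wild-type and 314, 325 and 377 in RTP1,2DKO mice with no overlap and was not called (log2 fold change 0.48, adjusted p = 0.176), and Trpv1, Scn10a and Dbh were at most 13.8 in any mouse. Of 5 markers of progenitors and dividing cells, 0 were called by edgeR, with a median log2 fold change of 0.52. At an unadjusted p under 0.05 in that fit, 5 were higher, where 4.58% of all genes were. In 5 every RTP1,2DKO mouse was above every wild-type mouse, where 7.17% of all genes did so. They summed to 4286 to 5679 in wild-type and 6356 to 8621 in RTP1,2DKO mice. With the replicate block edgeR called 1, Top2a (adjusted p = 0.0154). Of 2 blood markers, 1 was called higher, the haemoglobin gene Hbb-bt (log2 fold change 0.88, adjusted p = 0.0485, and 0.0506 with the replicate block; past the threshold in 1 of 6 fits that left out a mouse, the fit without RTP1,2DKO mouse 3), and they summed to 2357 to 3525 in wild-type and 3609 to 7548 in RTP1,2DKO mice. Of the markers of sustentacular, basal, microvillous and tuft, ensheathing glia, immune and muscle cells, 0 were called. Their median log2 fold changes were -0.10, 0.13, -0.01, 0.06, 0.02 and -0.33 in that order. The part of all these cells in the results for the presynaptic genes was not tested.

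Shares of transcripts within a gene were compared for 43 transcripts of 18 presynaptic genes with a mean of at least 10 counts. In 9 transcripts of 5 genes (Syt7, Syn3, Snap25, Rab3a and Unc13b) the shares did not overlap between the genotypes, or 20.9% against 10.9% of all such transcripts, and with 3 against 3 mice none could pass the threshold. Shares within a gene depend on each other, so the 9 are not separate observations, and no share per gene over all genes is given. Snap25 was listed with 2 transcripts of the same length, 2135 bases. The less abundant made up 23.2%, 30.98% and 25.7% of Snap25 counts in wild-type and 38.9%, 35.2% and 36.4% in RTP1,2DKO mice, a difference of 10.2 percentage points (exact permutation test, p = 0.1, adjusted p = 0.48). The second transcript of Unc13b made up 22.7% ± 1.1 of its counts in wild-type and 30.7% ± 5.4 in RTP1,2DKO mice (SD, n = 3). The split of Rab3a rested on RTP1,2DKO mouse 3, in which the main transcript took 29.2% against 89.3% to 100% in the other mice, and in Syt7 the share of the third transcript listed ranged from 39.0% to 81.3% within the wild-type mice alone.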

How the data were processed

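Stranded RNA libraries were made from mucosa of 6 mice, 3 of each genotype. The authors ran kallisto (version not given in the sources used here) on UCSC mouse transcripts with extended odorant receptor annotations, build mm10 per the submitters' processing notes, and deposited estimated counts and TPM per transcript. The strand setting is not given in the sources used here.

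Estimated counts were summed per gene, after removal of the trailing transcript number, and rounded. Genotypes were compared in edgeR 4.0.16 (R 4.3.3) with a quasi-likelihood F-test, DESeq2 1.42.0 median-of-ratios size factors, a minimum of 1 count in any mouse and Benjamini-Hochberg adjustment over all of them, at 0.05; 95% intervals are per gene and unadjusted. The deposited TPM served for levels within the wild-type mice only. Totals of 31125410 to 41636996 set the precision. Single values were compared by two-sided exact permutation tests over mice. The fits were tested on simulated data, where the main fit missed some changed genes and its share of false calls was above the nominal 0.05. Summaries used Python 3.11.15, pandas 2.3.3 and scipy 1.17.1. Gene positions came from GENCODE M21 (GRCm38, the same assembly as mm10) and promoter windows from RefSeq (GRCm38.p6); no protein sequences were used here.

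Groups and replicate numbers came from the sample titles. The methods describe littermates, but the titles do not say that equal numbers are littermates. Same-numbered mice deviated together weakly over 18156 genes with a mean of at least 10 counts (correlations 0.139, 0.177 and 0.101). Unlike numbers were not compared, so the pairing by number is an assumption. It entered only the alternative fit with the block, and the exact permutation tests leave it out. The fit without the block stays the main one, since the study's methods name none. Alternatives were TMM size factors, a mean of at least 10 counts, a likelihood-ratio test, DESeq2, the replicate block, a short marker list and each mouse left out. Values per mouse are given for the presynaptic genes that were called, for the most abundant of each role and for the largest change in each direction; with the 4 other release genes that were called and 6 markers (Omp, Adcy3, Cnga2, Gap43, Gng8 and Gad1) these make 26 genes named by rule. Further genes, such as Slc17a7, Syn1, Syn3, Stx1a and Bsn, were chosen after their values were seen. The genes of the set and the lists were chosen with earlier results of these data known. Of the ganglion neuron markers, 1 gene is not reported here.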

Additional observations from a re-analysis of the deposited data

How the results depend on the processing

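Direction was kept in the alternatives run for the summaries and for the 26 genes named by rule, while 3 of the 36 presynaptic genes outside that rule changed sign with a mouse left out: Pclo (-0.24 to 0.12), Amph (-0.19 to 0.12, also with the block) and Sncb (-0.73 to 0.19). The presynaptic genes called lower numbered 10 with TMM and with the filter on a mean of at least 10 counts, 11 with the likelihood-ratio test, 13 with DESeq2 and 12 with the replicate block, and all 10 called genes were among them each time. With a mouse left out they numbered 8 to 10. Syn1 and Bsn joined with the block, which removed no call among the 36. On the marker scale the 24 higher genes became 26 with the block, 27 with the short marker list and 21 to 25 with a mouse left out. Other release genes numbered 9 with DESeq2 and 4 to 5 with a mouse left out, against 4; the cause was not tested. The median of the 36 genes ranged from -0.39 to -0.30, and that of the mature OSN markers from -1.14 to -0.97. Transcripts with shares that did not overlap numbered 6 at a mean of at least 50 counts and 10 to 16 with a mouse left out, where fewer mice overlap less by construction. The 26 genes lost significance 18 times in all, all with a mouse left out except Gap43 with the filter.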
